A study of Mus musculus with 4 samples.

Results

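The activin system is described here through 9 genes of 19938 measured on the arrays: the subunit genes Inha, Inhba and Inhbb, the receptor genes Acvr1b, Acvr2a and Acvr2b, and the follistatin family genes Fst, Fstl3 and Fstl1. They were listed by name, and each is read by 1 probe set to which the array's gene table gives that symbol alone. The genes were listed with the difference between treated and untreated cells known, so their values, calls and intervals are given as a description, with no p-value, and test nothing about them. RNA came from Py2T cells, an epithelial mouse breast cancer line, grown in DMEM with 10% FCS, glutamine, penicillin and streptomycin. Of the 4 arrays, 2 are from untreated cells and 2 from cells given TGFβ at 2 ng/ml for 5 days. Both groups are the same cell line, and no genetic change separates them in the labels. The replicates are labelled biological, with no word on how the cultures were separated, so a p-value here covers the spread of these samples, which may be technical.

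Activins are dimers of the inhibin beta subunits encoded by Inhba and Inhbb, while the alpha subunit encoded by Inha pairs with a beta subunit to form inhibin, which opposes activin. An activin dimer binds a type II receptor, Acvr2a or Acvr2b, which then phosphorylates a type I receptor such as Acvr1b, and this receptor phosphorylates Smad2 and Smad3, the same Smads that TGFβ receptors use. Follistatin and its relative Fstl3 are secreted proteins that wrap around activin and keep it from its receptors.

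Expression was read as log2 probe-set values after RMA, and the number of arrays limits the precision. The medians of the arrays lay between 6.742 and 6.756. The epithelial keratins Krt8, Krt18 and Krt7 lay between 13.20 and 13.61 on every array. The other epithelial markers checked, Epcam and Cdh1, lay between 9.97 and 11.89. Epcam, Cdh1, Krt18 and Krt7 were lower on each TGFβ array than on either untreated array, the 2 keratins by gaps of 0.088 and 0.12. Between group means, Epcam was 2.14-fold and Cdh1 2.39-fold lower after TGFβ. Of the leukocyte markers 4 of 5 were measured, at 4.93 to 6.95, and the 4 endothelial markers lay at 5.02 to 6.34, with Cdh5 higher on each TGFβ array by a gap of 0.067. The 4 fibroblast markers ranged from 4.27 to 9.08, and of these Pdgfra and Col1a1 were higher on each TGFβ array than on either untreated array. The part of these marker differences in the results was not tested. Fewer cells making a transcript and less transcript per cell cannot be told apart in RNA from whole cultures.

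The sharpest contrast among the 9 genes lay between the activin antagonists Fst and Fstl3. Follistatin RNA was 14.0-fold lower and Fstl3 RNA 6.86-fold higher after TGFβ. The ligand gene Inhba was 1.98-fold higher and its relative Inhbb 1.49-fold lower. The receptor genes differed by at most 1.33-fold, and Inha and Fstl1 by at most 1.09-fold. In the fit over all genes with limma, 2 of the 9 (Fstl3 and Inhba) were called higher, 2 (Fst and Inhbb) lower and 5 neither, where 13.6% of all genes were called, 6.49% higher and 7.15% lower. The TGFβ and untreated arrays did not overlap for 6 of the 9, as for 52.6% of all genes. The list was made with this comparison known, so nothing is read from either count.

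**Figure D1:**
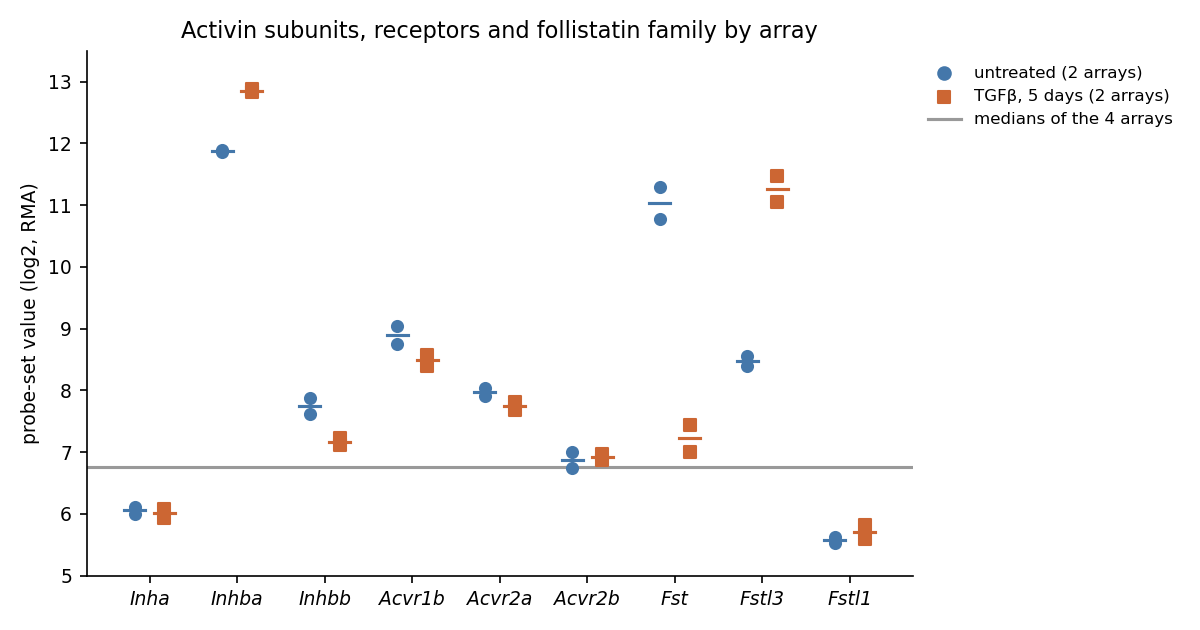
Probe-set values (log2, RMA; vertical axis) of the 9 genes on each array, with circles for the 2 untreated and squares for the 2 TGFβ arrays, short bars for group means and a grey line for the array medians. Fst drops from between 10.77 and 11.29 to between 7.01 and 7.44 while Fstl3 goes from between 8.40 and 8.56 to between 11.05 and 11.46, and Inha and Fstl1 stay under the array medians.

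Among the ligand subunits, Inhba, whose dimer is activin A, read 11.89 and 11.86 on the untreated arrays and 12.88 and 12.83 on the TGFβ arrays. The replicates of either group lay within 0.047 of each other, and the groups were at least 0.94 apart. The log2 difference was 0.98 ± 0.07 (SE of the fit over all genes, 2 arrays per group), with group means of 11.87 ± 0.02 and 12.86 ± 0.03 (SD, n = 2). Each TGFβ array exceeded each untreated array by between 0.94 and 1.02.

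Inhbb, the subunit of activin B, went the other way, from 7.62 and 7.87 to 7.12 and 7.23. Every TGFβ array was below every untreated one, by 0.40 to 0.76, in a log2 difference of -0.58 ± 0.11 (SE). This gene was no longer among those called without untreated replicate 2, where the difference was -0.45, or without TGFβ replicate 1, where it was -0.52. The probe-set values of Inhba and Inhbb thus moved apart by 1.56 on the log2 scale, with array pairs between 1.34 and 1.78. The TGFβ mean of Inhbb, 7.17, lies close to the array medians, where background can compress a fold. Inha, the subunit that turns an activin into an inhibin, read 6.001 and 6.12 untreated and 5.93 and 6.08 after TGFβ. These values overlapped, lay below the median of each array, and differed by -0.05 with a 95% interval of -0.27 to 0.17. A low level of Inha cannot be told from background, since the values carry no detection calls.

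Sequence upstream of 3 of these genes is shown because they are the genes with a called difference for which the RefSeq promoter table (build GRCm38.p6) holds a start site, 2 of them higher and 1 lower after TGFβ. Each run is the 250 bases before the start, 5′ to 3′ on the gene's strand, with capitals where the letters CAGAC, the core of a Smad box, occur on either strand.
Fstl3 promoter, chr10:79777024-79777273 (+ strand): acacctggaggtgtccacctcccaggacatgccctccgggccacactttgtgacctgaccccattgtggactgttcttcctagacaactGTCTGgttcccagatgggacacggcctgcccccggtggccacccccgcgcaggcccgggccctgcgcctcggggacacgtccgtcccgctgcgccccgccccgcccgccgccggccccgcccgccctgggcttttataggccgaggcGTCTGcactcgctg
Inhba promoter, chr13:16011601-16011850 (+ strand): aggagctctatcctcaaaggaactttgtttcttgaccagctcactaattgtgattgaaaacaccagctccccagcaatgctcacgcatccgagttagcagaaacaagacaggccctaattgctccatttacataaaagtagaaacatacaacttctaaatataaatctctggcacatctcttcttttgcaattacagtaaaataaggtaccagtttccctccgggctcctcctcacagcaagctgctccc
Inhbb promoter, chr1:119422249-119422498 (- strand): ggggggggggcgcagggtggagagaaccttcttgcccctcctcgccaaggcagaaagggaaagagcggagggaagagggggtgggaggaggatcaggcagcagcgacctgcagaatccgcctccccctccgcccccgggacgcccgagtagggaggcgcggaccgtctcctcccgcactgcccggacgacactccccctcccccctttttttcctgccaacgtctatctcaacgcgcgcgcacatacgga
The Fstl3 window holds the Smad box letters 2 times, both on the opposite strand, at -161 to -157 and at -14 to -10 from the start site. The Inhba and Inhbb windows hold none. Of the 8 genes in the table, 4 (Fstl3, Inha, Acvr2a and Acvr2b) have at least 1 such match, compared with 42.2% of all 32851 windows of this length. The AP-1 letters TGANTCA, found in 6.75% of all windows, and the TEAD letters GGAATG or their complement, in 12.6%, occur in 0 of the 8; the search covered both strands. The windows differ in base composition, with 22 CpG in Fstl3 and 21 in Inhbb and 3 in Inhba, where the median over all windows is 6. Such matches describe the letters in these windows only. Fst has no entry in the table.

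Of the receptors, Acvr1b, the main type I receptor of activin, read 9.04 and 8.76 untreated and 8.40 and 8.57 with TGFβ. The nearest arrays of the 2 groups were 0.19 apart, less than the 0.29 between the untreated replicates. The log2 difference was -0.41 ± 0.12 (SE), with a 95% interval of -0.71 to -0.11, and ranged from -0.56 to -0.27 when an array was left out. Acvr2a, a type II receptor that binds the ligand first, read 8.04 and 7.91 untreated and 7.81 and 7.68 after TGFβ. The groups were separated by 0.099, again less than the 0.13 to 0.14 between replicates. The log2 difference was -0.23 ± 0.09 (SE), with a 95% interval of -0.45 to -0.0096. The second type II receptor gene, Acvr2b, read 6.74 and 7.0035 untreated and 6.87 and 6.97 treated, with the TGFβ arrays lying between the untreated ones. Its difference of 0.05 had a 95% interval of -0.22 to 0.31 and turned negative without untreated replicate 1 (-0.09) or TGFβ replicate 2 (-0.0027). None of the 3 receptor genes was called in the fit without a block.

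Of the antagonists, Fst read 10.77 and 11.29 on the untreated arrays and 7.01 and 7.44 on the TGFβ arrays. Its groups were 3.34 apart at their nearest, over 0.52 between the untreated and 0.43 between the treated replicates. The log2 difference was -3.81 ± 0.21 (SE), the 2nd lowest of the 19938 genes. Means were 11.03 ± 0.37 and 7.22 ± 0.30 (SD, n = 2), and the second of these lies close to the array medians, where background can compress a fold.

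Fstl3, which binds activin like follistatin but lacks its heparin-binding stretch, read 8.56 and 8.40 untreated and 11.46 and 11.05 after TGFβ. Each TGFβ array exceeded each untreated array by 2.49 to 3.06, and the log2 difference was 2.78 ± 0.15 (SE), which ranks 29 among the rises. Group means were 8.48 ± 0.11 and 11.26 ± 0.29 (SD, n = 2). The values of Fstl3 and Fst thus moved in opposite directions by a combined 6.59 on the log2 scale, with array pairs between 5.83 and 7.35. Levels of the 2 genes cannot be set against each other on this scale, since each probe set has its own response.

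Fstl1, a secreted glycoprotein that shares the follistatin-type domain, read 5.53 and 5.63 untreated and 5.59 and 5.81 with TGFβ. Its groups overlapped, all 4 values lay below the array medians, and the difference of 0.12 had a 95% interval of -0.13 to 0.37. Within the family, the differences above 1 on the log2 scale were those of Fst and Fstl3, the genes of the activin antagonists, and no test of the family members against each other was made.

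**Figure D2:**
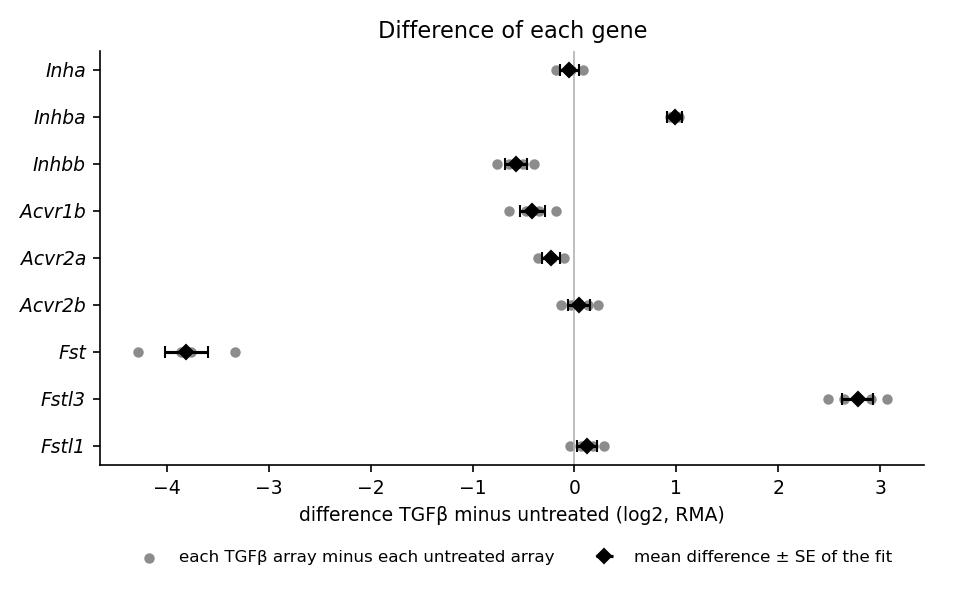
Difference between TGFβ and untreated cells (log2, RMA; horizontal axis) for each of the 9 genes, with diamonds for the mean difference, bars for the SE of the fit and grey points for each TGFβ array minus each untreated array. Fst at -3.81 and Fstl3 at 2.78 stand at opposite ends, and Inhba at 0.98 has the narrowest spread of array pairs.

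Other genes that act around the activin pathway were taken from 6 lists of ligands, receptors, intracellular signalling genes, follistatin-domain proteins, secreted antagonists and proprotein convertases. Of 79 listed genes 74 were measured, and limma called 14 higher and 8 lower, or 29.7%, where 13.6% of all genes were called. The lists, like the 9 genes, were chosen with earlier results of these data known, so nothing is read from these shares. The median difference was 0.0046 over the lists and 0.0097 over all genes. For 32 of the 74 both group means were under 7, where a difference is hard to detect. The number of calls fell from 22 to 14 without untreated replicate 1.

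Among other ligands of the activin receptors, 3 of 10 rose, 1 fell and 6 were not called (median 0.04). That is 40.0% called, beside 13.6% of all genes. Bmp6, a BMP that uses Acvr2a and Acvr1, rose from 7.56 and 7.62 to 9.45 and 9.45, a 3.63-fold difference (limma adjusted p = 2.6e-04). Gdf11, a ligand that follistatin also blocks, rose from 8.99 and 9.07 to 9.55 and 9.58 (adjusted p = 0.0091), but did not pass when untreated replicate 1 was left out (0.49, adjusted p = 0.055). Both ligands had replicates closer to each other than 0.08, far less than the difference. Bmp7 rose by 0.40 (adjusted p = 0.020), but with each array left out in turn it did not pass (0.38 to 0.43, adjusted p of 0.060 to 0.11), nor with the replicate number as a block (adjusted p = 0.059), and its untreated mean was under 7. Bmp4 fell from 9.98 and 9.42 to 6.75 and 7.74, or 5.49-fold (adjusted p = 0.0087), with the widest replicate spread of the 3 BMP genes named here. The further activin subunit genes Inhbc and Inhbe and the myostatin gene Mstn differed by -0.07, 0.0041 and -0.08, all with both means under 7.

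Of 12 receptors and coreceptors other than the 3 above, 1 rose, 2 fell and 9 were not called (median -0.0041). Acvr1, a type I receptor that binds activin but signals for BMPs, rose from 9.29 and 9.25 to 9.99 and 9.83 (0.63 ± 0.09 SE, adjusted p = 0.0080). The TGFβ receptor genes Tgfbr2 and Tgfbr1 fell by 0.95 (adjusted p = 0.0037) and by 0.58 (adjusted p = 0.035). Leaving out untreated replicate 1, TGFβ replicate 1 or TGFβ replicate 2 ended the Tgfbr1 call, at -0.40, -0.55 and -0.60 with adjusted p of 0.099, 0.12 and 0.081, as did the replicate block (adjusted p = 0.077). Tgfbr3, which encodes betaglycan, the coreceptor that lets inhibin hold a type II receptor, differed by -0.31 with a 95% interval of -0.54 to -0.07 (adjusted p = 0.10). The type I receptor gene Acvr1c differed by 0.09 (95% interval -0.09 to 0.28) and the pseudoreceptor gene Bambi by 0.12 (95% interval -0.07 to 0.31).

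Of 18 intracellular signalling genes 5 rose, 2 fell and 11 were not called (median 0.11), or 38.9% called beside 13.6% of all genes. The inhibitory Smad7 rose from 10.18 and 10.21 to 11.26 and 11.11 (adjusted p = 0.0018), and Skil, a nuclear repressor of Smads, from 9.83 and 9.60 to 10.69 and 10.52 (adjusted p = 0.0059). Pmepa1, a membrane inhibitor of Smad activation, rose by 0.43 (adjusted p = 0.040), but did not pass with the replicate block (adjusted p = 0.097). Leaving out untreated replicate 2, TGFβ replicate 1 or TGFβ replicate 2 also ended the Pmepa1 call, at 0.32, 0.47 and 0.39 with adjusted p of 0.16, 0.089 and 0.12. Nedd4l, a ubiquitin ligase that acts on activated Smad2 and Smad3, fell from 10.23 and 10.25 to 9.55 and 9.60 (adjusted p = 0.0039). Zfyve9, the membrane anchor that brings Smad2 and Smad3 to receptors, fell by 0.44 (adjusted p = 0.031). Leaving out untreated replicate 1, TGFβ replicate 1 or TGFβ replicate 2 ended the Zfyve9 call, at -0.34, -0.43 and -0.44 with adjusted p of 0.15, 0.098 and 0.079, as did the replicate block (adjusted p = 0.074). Smad3 differed by 0.37 (adjusted p = 0.046), but did not pass with each array left out in turn (0.29 to 0.44, adjusted p of 0.083 to 0.21), with cyclic loess (adjusted p = 0.053) or with the replicate block (adjusted p = 0.11). Smad2 differed by -0.13 (95% interval -0.33 to 0.06) and Smad4, the partner of both, by 0.02 (95% interval -0.16 to 0.21).

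Of 15 other proteins with follistatin-type domains 4 rose, 1 fell and 10 were not called (median 0.01). The called share was 33.3%, beside 13.6% of all genes. Tmeff1, a transmembrane protein with follistatin-type domains and an EGF-like domain, rose from 8.24 and 7.93 to 11.02 and 11.03. That is 7.69-fold (2.94 ± 0.11 SE, adjusted p = 2.6e-04), and its rank of 19 among all rises lies ahead of that of Fstl3. Igfbp7, a secreted IGF-binding protein, rose 3.73-fold, from 10.13 and 9.37 to 11.77 and 11.52 (adjusted p = 0.0070), and the matricellular Smoc2, with an untreated mean under 7, rose by 0.70 (adjusted p = 0.0038). Agrn, the heparan sulfate proteoglycan agrin, differed by -0.53 at an adjusted p of 0.04995, a call lost in 6 alternatives. Without untreated replicates 1 and 2 its adjusted p was 0.20 and 0.073, and without TGFβ replicate 1 it was 0.14. It was 0.071 with cyclic loess, 0.0504 with the mean of all probe sets and 0.12 with the replicate block. Agrn has 1 probe set, so the mean of all probe sets left its difference unchanged and altered only the fit over other genes. The remaining call, Smoc1, differed by 0.42 with both means under 7 (adjusted p = 0.022). Leaving out untreated replicate 1, untreated replicate 2 or TGFβ replicate 1 ended it (adjusted p of 0.11, 0.090 and 0.084), as did the replicate block (adjusted p = 0.065). Most of this list, 9 of 15, had both means under 7.

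Of 14 other measured secreted antagonists of TGFβ family ligands 0 rose, 1 fell and 13 were not called with limma (median -0.06). That is 7.14% called beside 13.6% of all genes, and 9 of the 14 had both means under 7. At an unadjusted p under 0.05, 0.0 were higher and 1.0 lower. The fall was in Chrdl1, a BMP antagonist, by 0.42 at an adjusted p of 0.04999. It was lost without untreated replicates 1 and 2 (adjusted p = 0.19 and 0.13) or TGFβ replicate 1 (adjusted p = 0.14). It was also lost with median centring (adjusted p = 0.0517), the mean of all probe sets (adjusted p = 0.0502) and the replicate block (adjusted p = 0.10). Chrdl1 too has 1 probe set, and its difference was unchanged under the mean of all probe sets. Of the 5 proprotein convertases, which cut ligand precursors, Furin rose 2.20-fold, from 11.01 and 10.85 to 12.22 and 11.92 (adjusted p = 0.0039). Pcsk6 fell 3.22-fold, from 9.61 and 9.64 to 7.75 and 8.12 (adjusted p = 0.0014), and the other 3 were not called. That is 40.0% of the 5 called, beside 13.6% of all genes.

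**Figure D3:**
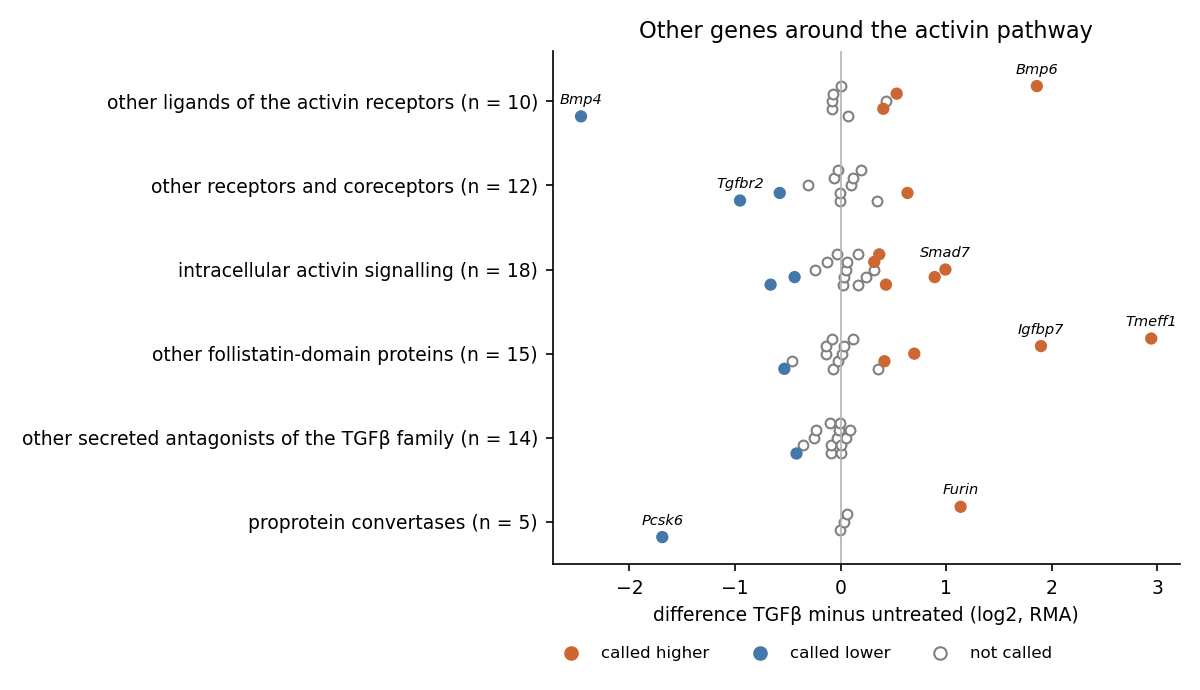
Difference between TGFβ and untreated cells (log2, RMA; horizontal axis) of the measured genes of 6 lists around the activin pathway, 1 point per gene, filled where limma called it (orange higher, blue lower) and open where it did not. Bmp6, Tmeff1, Igfbp7 and Furin stand to the right, and Bmp4 and Pcsk6 to the left. The list of other secreted antagonists lies between -0.42 (Chrdl1) and 0.09 (Chrdl2). In that list 9 of 14 genes had both means under 7.

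The genes with the pattern most like that of a follistatin or of Inhba were found by the Euclidean distance between the values of the 4 arrays, each gene centred on its own mean. These neighbours were chosen on the same arrays and carry no test. The search left out the 9 genes, predicted or clone-type names such as Gm, LOC or Rik, and names starting with Olfr or Vmn. For Fst the nearest were Klk10, a secreted kallikrein (distance 0.56 in log2 units), Csf2rb2, a cytokine receptor beta chain whose sequence is close to that of Csf2rb (0.70), and the epoxide hydrolase gene Ephx1 (0.70). Klk10 read 12.25 and 12.59 untreated and 8.81 and 9.46 with TGFβ. For Fstl3 they were Gng11, a G protein gamma subunit (0.089), the Notch ligand gene Jag1 (0.14) and the receptor tyrosine kinase gene Ret (0.21). Jag1 read 9.27 and 9.24 untreated and 12.25 and 11.96 with TGFβ, so that the TGFβ arrays differed in the same direction as for Fstl3. For Inhba they were the growth factor receptor gene Pdgfrb (0.033), the fucosyltransferase gene Fut4 (0.034) and Sardh, a sarcosine dehydrogenase (0.059). With 4 arrays in 2 groups, the distance is set mostly by the size of the difference between groups.

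**Figure D4:**
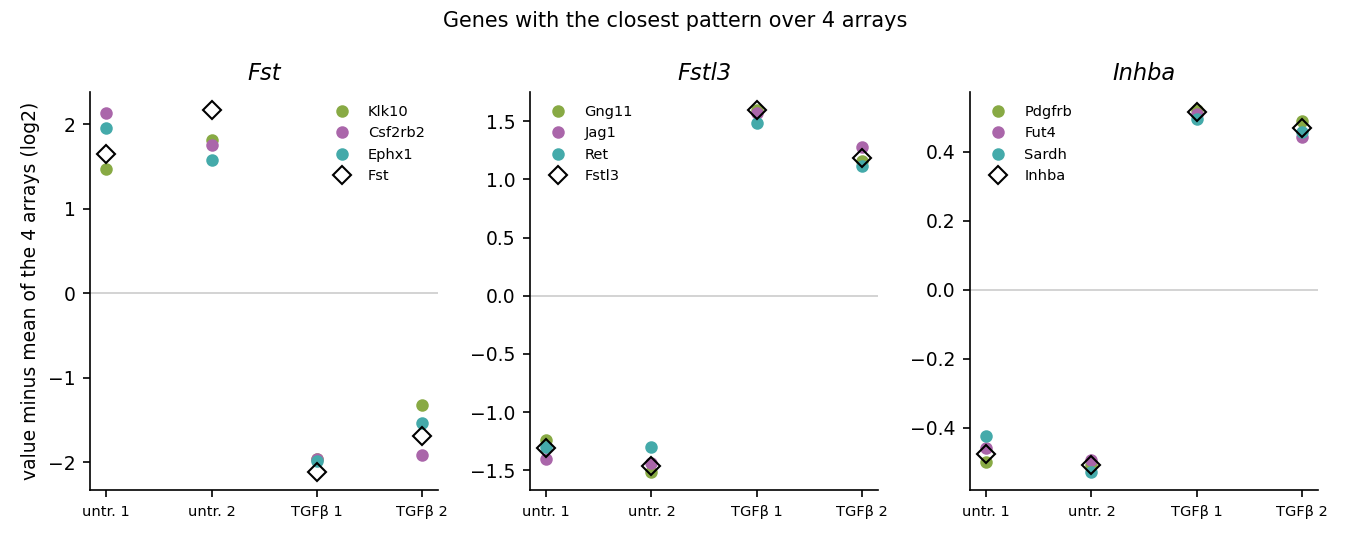
Values centred on each gene's mean over the 4 arrays (log2; vertical axis) for Fst, Fstl3 and Inhba (open diamonds) and the 3 genes nearest to each (coloured circles), by array (horizontal axis). Gng11 and Jag1 lie almost on the Fstl3 points, at distances of 0.089 and 0.14, while the nearest gene to Fst is 0.56 away.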

How the data were processed

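RNA of 4 Py2T cultures was hybridised to Affymetrix arrays, 2 untreated and 2 given TGFβ. Per the submitters' processing notes, the authors made the deposited log2 values with RMA in the R package oligo. Versions, probe-set annotation and build: not given in the sources used here. Per the labels' protocols, total RNA was amplified and labelled with Ambion and Affymetrix WT kits. Of 35556 probe sets 21789 carry 1 symbol in the array's gene table, and the brightest stood for a gene, which left 19938 genes.

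The groups were tested per gene in limma 3.58.1 under R 4.3.3 (2 residual and 3.775 prior degrees of freedom, two-sided). Benjamini-Hochberg adjustment ran over all 19938 genes, with calls at an adjusted p under 0.05. An exact permutation test was not used, since 2 against 2 arrays cannot reach that threshold. The procedure was checked for recovery of added changes on simulated data. The simulated noise was independent between arrays and held no array effects, so the check says nothing of such effects in the real arrays. The 9 genes and the lists were chosen with earlier results of these data known. Named besides the 9 were, per list, up to 3 called genes with the largest rise and 3 with the largest fall, and Acvr1, Acvr1c, Tgfbr3, Bambi, Smad2, Smad3, Smad4 and Smad7. Epcam, Cdh1, Krt8, Krt18, Krt7, Cdh5, Pdgfra and Col1a1 are cell type markers, and Inhbc, Inhbe, Mstn and Smoc1 were named after their values were seen. Alternatives were median centring, cyclic loess, the mean of all probe sets, leaving out the dimmest 25% of genes, the replicate number as a block, robust variances with an intensity trend, and leaving out each array. The labels name no pairing, so the replicate numbers were not taken as pairs in the main fit. Same-numbered arrays deviated against each other (correlation -0.21 across genes), and a crossed pairing was added after this was seen. Promoter sequences are from RefSeq (GRCm38.p6), without the bases after the start.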

Additional observations from a re-analysis of the deposited data

How the results depend on the processing

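Of the 10 alternatives of the processing summary, median centring, cyclic loess and leaving out each array could change the differences of the 9 genes. The others left the differences as they were by construction, with 1 probe set per gene and a balanced block. Leaving out the dimmest 25% of genes removed Fstl1, so 8 of the 9 genes were tested there. Where they could change, the differences of Fst, Fstl3, Inhba, Inhbb, Acvr1b and Acvr2a kept their sign. Fst lay between -4.07 and -3.55, Fstl3 between 2.57 and 2.99 and Inhba between 0.96 and 1.01. Inha turned positive without untreated replicate 2 (0.0081) or TGFβ replicate 1 (0.025). The number of the 9 genes called was 3 to 4 without each array in turn, and 4 under the other 6 alternatives. Over all genes 2720 were called, 1535 to 2260 without each array in turn, and 1624 with the replicate number as a block. Of the pathway lists 22 genes were called, 14 to 17 without each array in turn and 13 with the replicate block, and 12 of the 22 were called under all 10 of them. Smad4, not called, turned negative without untreated replicate 2 (-6.5e-05) or TGFβ replicate 1 (-0.016), within a range of -0.016 to 0.056 without each array in turn. A crossed pairing of the arrays, chosen after seeing the data, gave 3640 calls over all genes, 23 in the pathway lists and 5 of the 9, with Acvr1b as the added gene. The 2 arrays per group and the lack of detection calls limit what can be said of genes with means under 7.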
